A study of Mus musculus with 2 samples.

Results

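Transcripts that GENCODE M21, a mouse gene annotation, types as nonsense-mediated decay (NMD) transcripts were quantified in polyadenylated RNA from the central nervous system of mouse embryos. Members were chosen by their transcript type and selected on gene level. A member is an NMD transcript whose gene had at least 10 TPM (a length-normalised abundance of transcripts relative to the whole library) in both libraries. The rule gave 3068 transcripts of 1897 genes, out of 103639 Ensembl transcripts in the deposited tables and 4687 that carry the type. These genes made up 21.6% of the 8768 genes that reached the same level. The measure followed throughout is the share, a transcript's TPM as a percent of the summed TPM of all transcripts of its gene. Gene level chose the members, so it is given as a description, and the share itself was not used by the rule.

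The study comprises 1 group of 2 libraries, biological replicates 1 and 2, so there was no contrast and no test. Each came from mixed-sex C57BL/6J littermates at embryonic day 11.5 (E11.5), with no treatment or engineered allele on the labels. RNA over 200 nucleotides was depleted of ribosomal RNA, selected for poly(A) tails and sequenced as stranded read pairs. The labels do not describe where the tissue was cut or how many embryos were pooled. Values with ± are the mean and SD over both libraries (n = 2), and measure only the spread between these samples.

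NMD is the cytoplasmic pathway that degrades messenger RNAs on which ribosomes stop too early. In mammals the usual signal is an exon junction complex, a protein mark left at a splice site, that remains downstream of the terminating ribosome. UPF1, UPF2 and UPF3 proteins read this arrangement, SMG1 phosphorylates UPF1, and decay of the message follows. Many RNA-binding proteins use the pathway to control their own level, by splicing in an exon that carries a stop codon (a poison exon) or an intron behind the normal stop. The annotation type is a prediction from transcript structure. A level measured here is what remained at sampling, and production and decay cannot be told apart.

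Poison exons are the class in which the early stop can be read from a single exon, and some are shown here. The sequences below run 5′ to 3′ from the first base of the poison exon to its stop codon, which is in capitals. They were read from the GENCODE M21 transcript sequences, and the positions given are those of the whole exon on mm10. The exons listed first, chosen after their values were seen, were joined to each neighbour by at least 68 junction reads, and between 23.3% and 100% of the reads counted for or against them included them. Counted against an exon were only reads that join its neighbouring exons in the same transcript model, so other splice forms were left out. No such read was found for the Rimklb exon.
Rimklb, chr6:122452554-122452763, minus strand: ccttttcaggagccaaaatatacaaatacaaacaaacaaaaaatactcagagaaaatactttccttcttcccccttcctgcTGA
Hmgxb4, chr8:74999999-75000113, plus strand: gacagtggttcttgttcTGA
4933427D14Rik, chr11:72191278-72191344, minus strand: ttccagtcagtgagaccaTAA
Yaf2, chr15:93317539-93317608, minus strand: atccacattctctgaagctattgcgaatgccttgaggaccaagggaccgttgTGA
Naa16, chr14:79350689-79350830, minus strand: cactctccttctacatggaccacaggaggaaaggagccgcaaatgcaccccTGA
Alkbh1, chr12:87441643-87441780, minus strand: gaattttccatccttggagaaTGA
Tmem44, chr16:30549393-30549457, minus strand: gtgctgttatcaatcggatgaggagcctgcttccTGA
Ccnl1, chr3:65955130-65955276, minus strand: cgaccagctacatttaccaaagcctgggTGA
Rbm39, chr2:156178880-156178952, minus strand: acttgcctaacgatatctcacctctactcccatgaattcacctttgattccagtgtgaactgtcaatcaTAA

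The next exons are shown for contrast, because at most 4.66% of junction reads included them whatever the TPM share of their transcript. They too were chosen after their values were seen.
Nkiras1, chr14:18277844-18278101, plus strand: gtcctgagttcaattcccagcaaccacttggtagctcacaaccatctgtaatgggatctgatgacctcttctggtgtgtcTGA
Rsf1, chr7:97663578-97663610, plus strand: gcaatgctgcatTGA
Tnik, chr3:28549541-28549644, plus strand: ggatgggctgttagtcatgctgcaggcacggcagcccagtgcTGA
Atp5f1, chr3:105957870-105958036, minus strand: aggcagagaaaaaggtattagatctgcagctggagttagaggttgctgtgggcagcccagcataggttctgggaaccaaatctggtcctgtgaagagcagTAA
Rbm39 (a second exon), chr2:156174097-156174168, minus strand: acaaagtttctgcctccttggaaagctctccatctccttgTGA
Snrpb, chr2:130176629-130176752, minus strand: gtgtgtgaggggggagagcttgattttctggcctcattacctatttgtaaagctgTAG

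Summed over Ensembl transcripts, the expected counts came to 120461127 and 108007022 for replicates 1 and 2, and the members supplied 2438386 and 1806599 of these. The labelled tissue was checked on marker genes. The neural progenitor genes Sox2, Pax6, Nes, Vim and Fabp7 lay between 43.11 and 2643 TPM, and the neuronal genes Tubb3, Dcx, Map2, Elavl3 and Stmn2 between 48.17 and 882.1 TPM. Progenitor genes also differed between libraries, with Nes at 233.1 and 72.17 TPM and Vim at 2643 and 1153. Markers of other tissues were present, and some were unequal. The muscle regulators Myod1 and Myog were at 0.15 and 0.4 TPM in replicate 1 against 19.37 and 34.22 in replicate 2. The hepatic genes Alb, Afp and Apoa1 were at 353.0, 306.0 and 105.5 TPM in replicate 1 against 109.6, 169.3 and 28.08 in replicate 2. The embryonic globin Hbb-y, an erythroid marker, stood at 8740 and 13866 TPM, and Hbb-bh1 at 1716 and 2622. The erythroid marker Gata1 went the other way, with 9.71 TPM in replicate 1 and 7.66 in replicate 2. The mesenchymal genes Col3a1 (288.8 and 240.1 TPM) and Col1a2 (168.1 and 152.2) were closer between libraries, whereas Prrx1 was at 13.55 and 54.1. The endothelial genes Cdh5 (19.31 and 29.26) and Cldn5 (33.77 and 24.75) differed in opposite directions. The part of these other tissues in the differences between libraries below was not tested.

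Most members were present at a low share. In both libraries 2344 members had a TPM above 0, 439 were at 0 in one library and 285 were listed at 0 in both. The median share was 1.66% in replicate 1 and 1.73% in replicate 2 (1.70% ± 0.0537). A share under 1% in both libraries was seen for 1009 members, or 32.9%. At the other end, 464 members of 438 genes held at least 10% of their gene in both libraries, 152 held at least 25% and 30 at least 50%. The 464 were 15.1% of the members. Of all 43200 transcripts of genes at the TPM minimum with 2 or more transcripts, 28% passed the same mark. The most abundant transcript of its gene in both libraries was a member in 80 cases, 2.61% of members, against a background of 12% of all such transcripts. The table lists no other transcript of the gene for 8 members, whose share was therefore 100%. These 8 are counted in the 464, 152, 30 and 80, whereas the backgrounds of 28% and 12% leave such genes out. The backgrounds are also not matched for transcripts per gene. A gene with more transcripts leaves less share to each, and the member genes list more of them.

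The other transcript types of the same 1897 genes give the scale. Their 7265 protein-coding transcripts had median shares of 4.38% and 4.34%, and 34.5% of them reached 10% in both libraries. Retained intron transcripts, 4581 in number, had medians of 2.78% and 3.67%, and 14.1% reached 10%. Processed transcripts, with no open reading frame assigned, were lower, with medians of 0.684% and 0.742% for 1833 transcripts. Pooled over all member genes, NMD transcripts held 13.8% of the TPM in replicate 1 and 10.9% in replicate 2 (12.4% ± 2.05). Protein-coding transcripts held 65.7% and 69.8%, and retained introns 15.7% and 16.1%. The 10 members with the highest TPM carried part of this pool, and without them it was 8.88%.

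Per gene, the members' summed share had a median of 4.23% and 4.12%. It reached 10% in both libraries in 509 genes, or 26.8%, and 50% in 46 genes. A single member was listed for 1178 genes and 2 or more for 719, with at most 13 in a gene. Genes of higher level had somewhat lower summed shares. The 458 genes between 10 and 20 TPM in their lower library had medians of 4.67% and 4.81%, and the 268 genes at 100 TPM or more had medians of 2.97% and 2.53%.

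Across members the shares of the libraries correlated with a Pearson r of 0.802 and a Spearman rho of 0.773 (3068 transcripts, which are not independent replicates). The median difference was 0.952 percentage points. A difference of at least 10 points was found for 348 members, 11.3%, against 16.4% of all transcripts of genes with 2 or more transcripts. This background, too, is not matched for transcripts per gene. The larger differences lay mostly on one side. Replicate 1 was the higher one for 235 of the 348, and for 74 of the 86 members that differed by at least 25 points. The direction over all transcripts is not given here, so this tilt cannot be called particular to the members. With 1 library a side, a difference between these libraries has no replicate check.

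**Figure D1:**
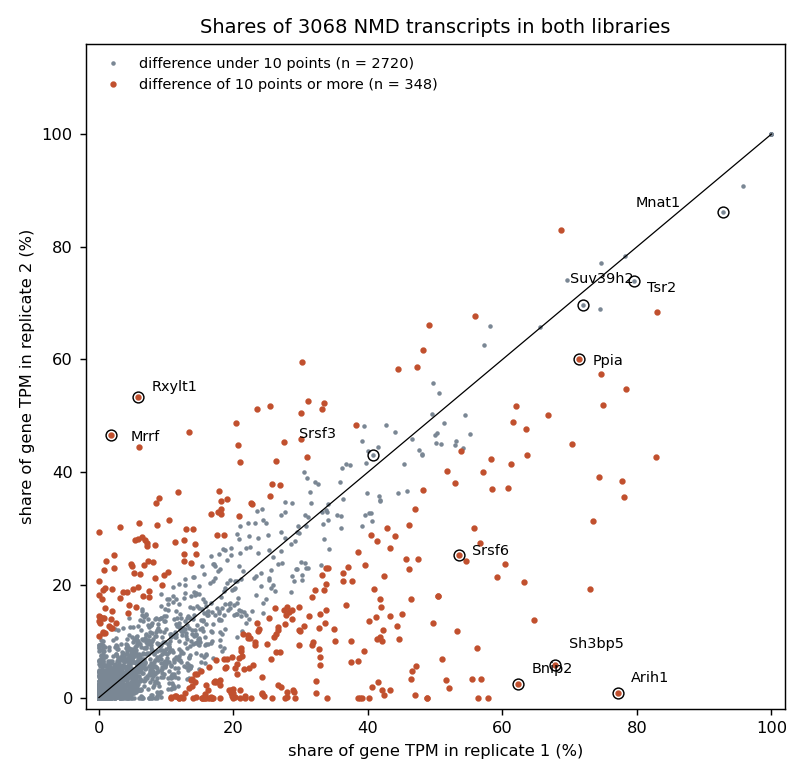
Share of each of the 3068 NMD transcripts in its gene's TPM (percent) in replicate 1 (x axis) and replicate 2 (y axis), 1 point per transcript, with the line of equal shares. Red points (348) differ by 10 percentage points or more, circles mark named transcripts, and most far points, such as Arih1 and Bnip2, lie on the side of replicate 1.

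The members differ in how the early stop arises. For 2897 members the M21 model has the length of the transcript that was quantified with the older annotation, and only these were classed. In 1321 of them (45.6%) the stop lies in an exon that a protein-coding model of the gene also uses unchanged, where no coding model stops. This class is called frame changes below, although reading frames were not compared. In 792 (27.3%) it lies in an exon that overlaps a coding model's exon but has other ends. In 580 (20.02%) it lies in a poison exon that overlaps no exon of a protein-coding model. In 183 (6.32%) the stop is that of a protein-coding model and an intron follows it. This class is called intron after the normal stop, although whether that stop is the usual one of the gene was not checked. The remaining classed members were 20 with no protein-coding partner and 1 without an annotated stop. The models of the other 171 members changed, so the type may not describe the model that was counted. Of these, 47 held at least 10% of their gene in both libraries.

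These classes had unequal shares. Transcripts with a poison exon were lowest, with medians of 1.12% and 1.21%, and 10.2% of them reached 10% in both libraries. Frame changes had medians of 1.46% and 1.49% with 14.2% past the mark. Altered exons had 2.13% and 2.19% with 15.7%. Transcripts with an intron after the normal stop had 1.92% and 2.30% with 20.8% past the mark. The quartiles overlapped, since the upper quartile of the poison exon class, 4.78% and 4.64%, lay above the medians of the other classes named here.

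The position of the stop is part of how the transcript type is assigned, so the distances are a description of the selection. Of 2889 classed members with a junction behind the stop, 2872 had it more than 50 bases upstream of the last junction, the distance at which an exon junction complex is thought to trigger decay. With 55 bases the count was 2832. The median distance was 321 bases, with quartiles at 160 and 677. The 17 members at 50 bases or less had a median mean share of 0.598%, and 2 of them reached 10% in both libraries. Stop codons were TGA in 58.1% of classed members, TAA in 21.9% and TAG in 19.99%. Protein-coding transcripts of the same genes had 51.7%, 23.9% and 24.4%. Poison exons ended in TGA in 50.3%, and frame changes in 62.8%.

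The 536 distinct poison exons of 469 genes had a median length of 119 bases, with quartiles at 88.75 and 156. Their stop codon came early, at a median of 36 bases from the exon's first base. A length divisible by 3 was found for 197 of them, 36.8%. In complete models, the coding sequence of poison exon transcripts was a median of 26.6% as long as the longest coding sequence of the gene, against 22.6% for frame changes and 99.8% for introns after the normal stop.

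The highest shares are given among members whose deposited gene also has a protein-coding transcript, which leaves out Hnrnpu, described with the highest TPM, and genes such as Mrpl32 with no other transcript. Mnat1 encodes an assembly factor of the CDK-activating kinase. Its member ENSMUST00000189644 was at 31.55 and 21.01 TPM, which was 92.8% and 86.1% of the gene (89.5% ± 4.75). Glo1, which detoxifies methylglyoxal, had a member at 78.2% and 78.3%, the closest pair among these. Tsr2, a ribosome assembly factor, had one at 79.5% and 73.9%. Qk, an RNA-binding protein of glia and progenitors, had one at 74.7% and 77.2%. The models of Glo1 and Qk changed between the annotation used for counting and M21, so the type may not describe the model that was counted.

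The other genes of this group lay lower. Commd2 had a member at 68.7% and 82.9%, and Mrps14, of the small mitochondrial ribosomal subunit, at 83.0% and 68.5%. Aptx, a DNA end repair enzyme, had one at 69.6% and 74.0%, and Elk4, an ETS transcription factor, at 74.5% and 68.9%. Suv39h2, a histone H3 lysine methyltransferase, had one at 72.0% and 69.6%. Pstk, an enzyme of selenocysteine synthesis, had one at 78.3% and 54.7%, the widest gap here, and its model also changed. Elk4 carries its intron behind the normal stop, and the members of Commd2, Mrps14, Aptx and Suv39h2 have frame changes or altered exons.

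Members with the highest TPM came from highly expressed genes. The highest was a transcript of Ppia, the peptidyl-prolyl isomerase cyclophilin A, at 2264 and 2000 TPM, or 71.4% and 60.0% of the gene. Eef1b2, a nucleotide exchange factor of translation elongation, had a member at 1199 and 465.2 TPM, or 74.95% and 51.9%. Rpl12, of the large ribosomal subunit, had one at 944.6 and 450.1 TPM, or 58.3% and 42.3%. These genes have processed pseudogenes in the genome, and how reads were divided between copies is not given in the sources used here, so these values are uncertain.

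Hnrnpu, a nuclear matrix RNA-binding protein, had a member at 714.1 and 268.8 TPM. Its share was 95.8% and 90.8% of the deposited gene, which lists only 3 transcripts, all of them members. Grouped by the M21 gene it was 81.0% and 53.3%. The chaperone gene Hspa5 had a member at 651.9 and 281.3 TPM (66.7% and 50.2%). Ddx5, an RNA helicase of the spliceosome, had 2 such members. One was at 217.4 and 237.1 TPM (21.01% and 41.9%), and the other at 574.0 and 18.84 TPM (55.5% and 3.33%). Serf2 had one at 293.7 and 155.8 TPM (55.1% and 46.7%), and 80% of its bases lie in exons of the neighbouring coding gene Hypk. The signalling adaptor Ywhae had one at 712.7 and 146.6 TPM (41.2% and 14.4%) and the cell cycle kinase Cdk4 one at 363.6 and 284.7 TPM (20.1% and 19.2%). Of these, Cdk4 was the closest between libraries and the second Ddx5 member the farthest apart.

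Transcripts that overlap another coding gene, as the Serf2 member does, were few. Some exonic base lay in an exon of another protein-coding gene on the same strand for 110 members, and 23 of these, 20.9%, reached 10% in both libraries. Their median shares were 1.51% and 1.98%.

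The members whose shares differed most between the libraries are given here, 5 in each direction. Higher in replicate 1 were members of Arih1, a ubiquitin ligase (77.2% against 0.772%), of Sh3bp5 (67.9% against 5.76%), of Bnip2 (62.3% against 2.41%), of the ubiquitin conjugating enzyme gene Ube2g2 (57.9% against 0%) and of 1700025G04Rik (56.4% against 0%). The Arih1 member was at 85.03 TPM in replicate 1 and at 0.47 in replicate 2, while the whole gene went from 110.2 to 60.86 TPM. Higher in replicate 2 were members of Rxylt1, a glycosyltransferase (5.80% against 53.4%), of Mrrf, a mitochondrial ribosome recycling factor (1.78% against 46.6%), of Cul2, a scaffold of ubiquitin ligases (5.99% against 44.5%), of the chromatin remodeller Smarca2 (13.3% against 47.1%) and of the nuclear poly(A)-binding protein gene Pabpn1 (0% against 29.4%). Of the bases of the Pabpn1 member, 69.0% lie in exons of another coding gene, Gm20521. The Smarca2 member was at 18.25 and 24.2 TPM, while its gene was at 137.0 and 51.38 TPM. The model of this member changed in M21, so the type may not describe the model that was counted.

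The authors deposited an interval around each TPM, whose level is not stated. These transcripts were chosen for the largest differences in the same TPM, so separate intervals are no further support for those differences. The same count over all transcripts is not given here. For these transcripts the intervals did not overlap between libraries. For the Arih1 member they ran from 82.4 to 85.9 TPM in replicate 1 and from 0.167 to 0.946 in replicate 2. For the Mrrf member they ran from 0.0101 to 0.944 and from 9.19 to 14.4. Those intervals cover the estimate within a library and not the spread between embryos.

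Reads over splice junctions give a separate measure, because a spliced read shows which exons were joined. A deposited mm9 list gives the reads over each junction in 2 columns, which no label ties to a replicate. For each member, the junctions that no protein-coding model of the gene uses were taken. For each of them the reads were divided by all reads over junctions that share its donor or acceptor, and the lowest of these percentages is called the junction share. A junction can belong to several transcripts. The junction share refers to the reads at these splice sites and not to all transcripts of the gene. The measure was not taken for members with an intron after the normal stop, which are compared in another way below, or with no protein-coding partner. It was obtained for 1936 members. The rest had no identical mm9 model, fewer than 20 reads or no junction of their own.

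Junction shares were low, with a median of 0.874%. No read over at least one of its own junctions was found for 554 members, and 265 members had a junction share of at least 10%. TPM share and junction share were related only loosely, with a Spearman rho of 0.484 over 1936 transcripts that share libraries. The median junction share was 0.028% for the 742 members under a mean TPM share of 1%. It was 1.79% for the 580 members between 1 and 5%, and 3.72% for the 222 between 5 and 10%. It was highest, 5.02%, for 254 members between 10 and 25%, and was 3.71% for 114 between 25 and 50% and 3.88% for 24 at 50% or more.

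**Figure D2:**
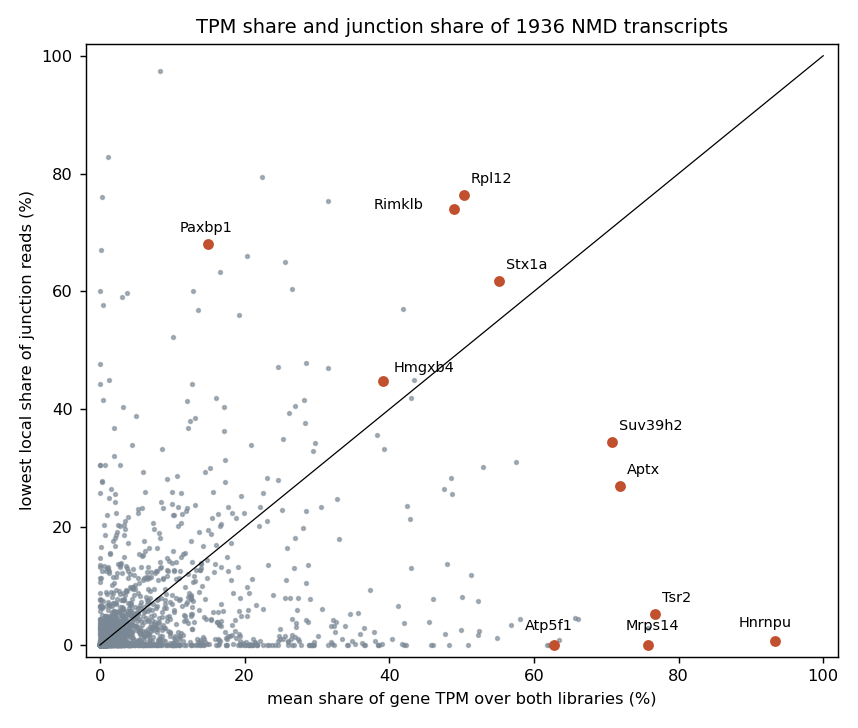
Mean share of gene TPM (x axis, percent) against the junction share (y axis, percent) for 1936 NMD transcripts, with the line of equality and 11 named transcripts in red. Stx1a and Hmgxb4 lie near the line, whereas Mrps14, Atp5f1 and Hnrnpu lie at the foot of the plot beside mean TPM shares of 75.7%, 62.8% and 93.3%.

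Members with at least 10% of their gene's TPM in both libraries split into unlike groups on this measure. Junction shares existed for 266 of them, with a median of 5.72%. The junction share was at least 10% in 103 (38.7%) and under 1% in 74 (27.8%), of which 45 had a junction with no read. Of the 651 members under 1% of TPM in both libraries, 23 (3.53%) had a junction share of at least 10%. The groups also differed in how much of the transcript is its own. Members with TPM shares of at least 10% and junction shares under 1% had a median of 0 bases outside the exons of coding models. Those with junction shares of at least 10% had a median of 60 bases. TPM shares differed between the libraries by a median of 7.64 points in the group with junction shares under 1% and of 4.88 points in the group with at least 10%.

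Among members past 10% of TPM in both libraries, 78 had at least 100 reads over their least used junction. The examples here were chosen after their values were seen, from the 16 with the highest junction shares. Stx1a encodes syntaxin 1A, a membrane protein of synaptic vesicle release. Its member was at 17.00 and 15.05 TPM, or 61.6% and 48.8% of the gene, and 650 of 1053 junction reads were its own (61.7%, 95% Wilson interval 58.8 to 64.6%, counting error only). Rimklb, an enzyme that makes N-acetylaspartylglutamate, had a member at 52.9% and 44.9%, with 691 of 933 reads (74.1%). Paxbp1, a partner of PAX transcription factors, had one at 16.9% and 13.0%, with 1223 of 1797 reads (68.1%). Hmgxb4 had one at 36.8% and 41.4%, with 333 of 744 reads (44.8%). Nfrkb, a subunit of the INO80 remodeller, had one at 33.8% and 23.0%, with 255 of 532 (47.9%).

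Rpl12 also stood in this group, with 752 of 984 reads (76.4%). These reads were few for a gene at 1620 and 1064 TPM, whereas Cdk4, at 1810 and 1481 TPM, had 42152 reads over the junctions compared. Other members here came from 3110040N11Rik (79.5%), Hyi (75.3%), Pcnp (66.0%), Samd8 (64.9%), Pank4 (63.3%) and Cox18, an assembly factor of cytochrome oxidase (60.4%).

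At the opposite end of the members past 10% of TPM in both libraries, the 12 with no read and the most reads over competing junctions are also chosen on their values. The Cdk4 member had 0 of 42152 reads (Wilson upper bound 0.00911%) at TPM shares of 20.1% and 19.2%. The Ywhae member had 0 of 23515. The Mtch2 member had 0 of 3569 at 26.9% and 37.7%. The Atp5f1 member, of mitochondrial ATP synthase, had 0 of 3100 at 82.8% and 42.7%. Eif6, which keeps ribosomal subunits apart, had 0 of 2822 at 36.3% and 22.03%. Mrps14 had 0 of 2512 at 83.0% and 68.5%, and Lrp1, an endocytic receptor, 0 of 1823 at 50.4% and 18.1%. The junction counts and the TPM thus placed these transcripts apart, and which of the measures is nearer the true level was not tested.

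**Figure D3:**
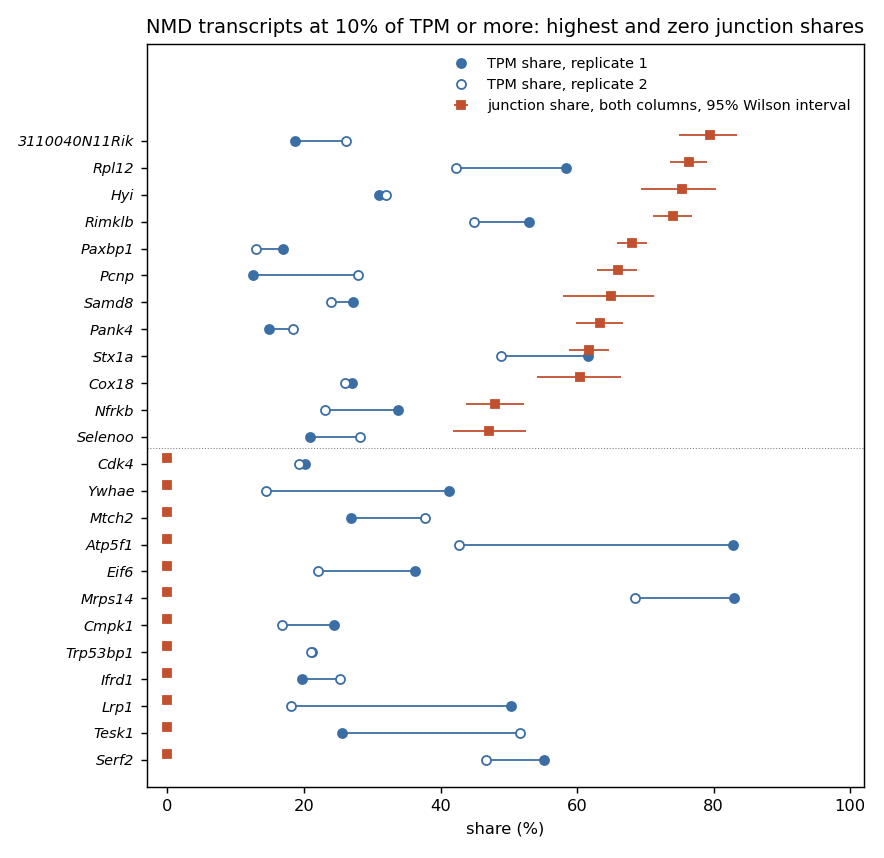
TPM shares in replicate 1 (filled circles) and replicate 2 (open circles) and junction shares with 95% Wilson intervals (squares), in percent, for members with at least 10% of TPM in both libraries: 12 with the highest junction shares among those with at least 100 reads of their own (above the dotted line) and 12 with no read and the most competing reads (below it). Above the line 11 of 12 junction shares exceed both TPM shares beyond the interval, Stx1a being the exception, and below it all TPM shares exceed 14%.

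The highest-share members took both positions. Suv39h2 had 348 of 1011 junction reads (34.4%) and Aptx 208 of 771 (27.0%). Tsr2 had 129 of 2428 (5.31%), Commd2 57 of 2021 (2.82%) and Mrps14 none. Among the members with the highest TPM, Ppia had 5 of 111 reads (4.50%), Hnrnpu 4 of 651 (0.614%), Eef1b2 1 of 123 (0.813%), the second Ddx5 member 0 of 5822 and Serf2 0 of 1524. The reads compared were few for Ppia, a gene at 3169 and 3332 TPM, and for Eef1b2, at 1600 and 895.6 TPM. The members that differed most between libraries had low junction shares where measured. Arih1 had 3 of 3140 reads, Ube2g2 1 of 4049, Rxylt1 8 of 1448, Mrrf 0 of 321 and Bnip2 68 of 2143 (3.17%, with 3.16% and 3.20% in the columns).

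The junction columns resembled each other more than the TPM shares of the libraries did. For 1684 members with at least 100 competing reads in each column, the median difference was 0.475 points between columns and 0.899 points between TPM shares. A difference of 10 points was found for 66 of them on junctions and for 179 on TPM, with 15 in common, which is 22.7% of the former and 8.38% of the latter. Spearman's rho was 0.866 between columns and 0.776 between TPM shares. The scales are unlike, because many junction shares lay near 0, with a median of 0.874% and 554 of 1936 members at 0. Small values leave little room for differences in points, and the columns are tied to no library.

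The mm9 transcript table holds RPKM values for 2500 of the members on another gene set. Shares computed from it had medians of 1.59% and 2.03% in its first and second value. Of these members 377 had 10% of TPM in both libraries and 406 had 10% of RPKM in both values. Both held for 226, which is 59.9% of the former and 55.7% of the latter. Commd2 (83.2% and 90.6%) and Mrps14 (94.2% and 89.9%) were as high there. Hspa5 (15.5% and 0.369%), Ywhae (0% and 1.79%) and Sh3bp5 (2.20% and 1.69%) were not.

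Inclusion of a poison exon was taken as the reads over its less used flanking junction against those that skip it. Only reads that join the neighbouring exons of the same model count as skipping. Other splice forms are left out, so inclusion can be overstated. Inclusion was measured for 375 exons, had a median of 0.796% and was 0 for 108. At least 10% inclusion was found for 57 and at least 50% for 12. The upper quartile was 4.53%. Between the columns 28 exons differed by 10 points or more. High inclusion could stand beside a lower junction share. The values were 100% and 74.1% in Rimklb, 100% and 13.5% in Cirbp, and 94.8% and 2.14% in Srsf4.

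With at least 100 inclusion reads, 23 exons passed 10%, and the following were chosen among them after their values were seen. Dnajc5 encodes a chaperone of synaptic vesicles. Its poison exon was included in 838 of 2536 reads (33.0%, interval 31.2 to 34.9%), and its member had 29.7% and 29.3% of the gene's TPM. The exon of Yaf2, a Polycomb partner, was included in 626 of 2509 (24.95%), with 24.8% and 25.2% in the columns, and its member had 34.1% and 31.5%. Hmgxb4 had 333 of 740 (45.0%), Naa16, an N-terminal acetyltransferase subunit, 171 of 360 (47.5%), and Alkbh1, a nucleic acid demethylase, 249 of 711 (35.0%). Their members had 36.8% and 41.4% of TPM in Hmgxb4, 39.5% and 23.5% in Naa16 and 23.6% and 25.7% in Alkbh1.

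For other poison exons the inclusion stood above the TPM share of the member it was measured for, although an exon can belong to several transcripts. The exon of Tia1, an RNA-binding splicing regulator, was included in 307 of 1633 reads (18.8%), while that member had 3.48% and 3.20% and all 4 members of the gene 4.57% and 17.1%. Tial1, its paralog, had 120 of 666 (18.02%) beside 4.30% and 6.43% for that member and 15.2% and 19.6% for its 3 members together. In Rps19, of the small ribosomal subunit, the figures were 120 of 465 (25.8%) beside 1.87% and 2.24%. The 465 reads were few for a gene at 1406 and 956.2 TPM. In Ccnl1, the cyclin L1 gene, 279 of 676 reads (41.3%) included the printed exon, and the member had 13.7% and 10.01%. The 676 leave out 474 reads of a shorter form of this exon, and the junction share was 22.7%.

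The printed exons with little support showed the reverse. The Nkiras1 exon was included in 16 of 343 reads (4.66%) while its member had 74.6% and 57.5% of TPM. The Rsf1 exon, of a chromatin remodelling factor, had 14 of 319 (4.39%) beside 77.8% and 38.4%. The Tnik exon, of a kinase in the Wnt pathway, had 0 of 187 beside 40.5% and 32.8%. The Atp5f1 exon had 0 of 3099.

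Introns behind the normal stop were compared with the junction before that stop, where a protein-coding model also uses it. The stop need only be that of any protein-coding model, so this junction may not be the one most transcripts use. Of 91 such members with reads, the median ratio was 0.572%, 31 had no read and 18 had at least 10%. Srsf6, a splicing factor of the SR family, had 1820 reads over the intron behind the stop and 659 over the junction before it (276%). Its member had 53.5% and 25.3% of TPM. Where the reads behind the stop outnumber those before it, the ratio is not a share of the gene's transcripts. Hnrnpdl, an hnRNP, had 1235 against 8365 (14.8%) and a member at 30.4% and 12.7%. Cbx1, a heterochromatin protein, had 1210 against 7256 (16.7%) and a member at 33.1% and 51.2%. Tardbp, the TDP-43 gene, had 1196 against 305 (392%), and the member that these reads were counted for was listed at 0 TPM in both libraries. The 10 members of Tardbp together held 14.7% and 27.7% of the gene. Some members with high TPM shares had few such reads. Elk4 had 4 against 205 (1.95%) beside 74.5% and 68.9%, and Khdrbs1 had 105 against 6017 (1.75%) beside 59.3% and 21.4%.

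Gene lists place the members by function. The ribosomal protein, translation factor, respiratory chain and proteasome lists were drawn by gene symbol, so genes of other function can fall in them. The lists describe counts and medians only, beside all 1897 member genes with medians of 4.23% and 4.12% and 26.8% of genes past 10% in both libraries. Of all genes at the TPM minimum, 21.6% had a member. Of 12 SR protein genes at the TPM minimum, 8 had a member, with median summed shares of 12.5% and 8.23%, and 3 passed 10% in both libraries. Srsf3 was at 40.8% and 43.1%, at 174.3 and 236.0 TPM, and its model changed in M21. Srsf6 followed, then Srsf1 at 21.5% and 11.9%, of whose main member 81 of 12420 junction reads (0.652%) were its own. Tra2b, whose model also changed in M21, was at 17.0% and 7.08%, and Srsf5 was lowest at 0.0564% and 0.0667%.

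Of 42 hnRNP and related genes, 19 had a member, with medians of 13.5% and 13.3% and 10 past 10%. Beside Hnrnpu these were led by Khdrbs1 (59.3% and 21.4%), Hnrnpll (49.7% and 13.3%) and the cold-induced Cirbp (43.2% and 14.4%). Every one of these 3 was higher in replicate 1. Both Ptbp3 members were at 0. Hnrnpd had members between 0.0366% and 2.28%.

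Of 56 spliceosome genes and splicing kinases, 28 had a member, with medians of 12.4% and 9.74% and 12 past 10%. Ddx5 led with a summed 76.5% and 45.2%. Ccnl2 was at 42.3% and 21.5%, Luc7l3 at 47.1% and 0.427%, and Ccnl1 at 20.01% and 24.7% over 5 members. The Clk1 kinase had members at 0.0408% and 18.3%, and at 10.1% and 6.43%. The first of them held 253 of 4038 junction reads (6.27%). Snrpb was at 1.10% and 1.62%, with its poison exon included in 98 of 11585 reads (0.846%, interval 0.695 to 1.03%).

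Rbm39, a splicing coactivator, showed the exon printed above in 450 of 1931 reads (23.3%, with 17.8% and 29.2% in the columns). ENSMUST00000155837, which carries it, had 17.3% and 2.90% of TPM. The second printed exon was in 103 of 3088 reads (3.34%), and its transcript had 7.99% and 1.79%. Both transcripts were higher in replicate 1.

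**Figure D4:**
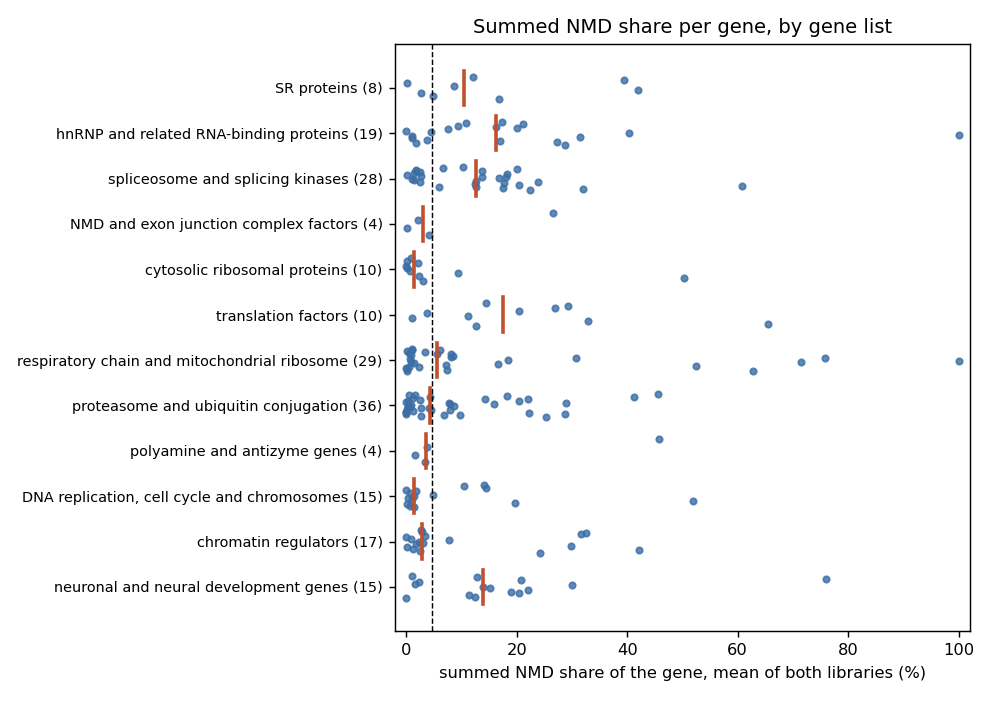
Summed share of NMD transcripts per gene (mean of both libraries, percent of gene TPM) for the genes of 12 lists, 1 point per gene, with the number of genes after each list's name. Red bars are list medians and the dashed line is the median of all member genes. Ribosomal protein genes lie left of it except for Rpl12 and Rpl27a. The medians of the SR, hnRNP and spliceosome lists lie right of it, as do those of the translation factor and neuronal lists.

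Of 26 genes for NMD and the exon junction complex, 4 had a member (15.4%, against 21.6% of all genes at the minimum). The endonuclease gene Smg6 was at 22.1% and 31.0%, with 11 of 667 junction reads (1.65%). Magohb, a core subunit of the complex, was at 6.21% and 1.82%, Smg5 at 1.12% and 3.18% and the kinase gene Smg1 at 0.124% and 0.0862%. The model of the Smg1 member changed in M21.

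Cytosolic ribosomal protein genes rarely had members, 10 of 83, and their medians were 1.36% and 1.28%. Rpl12 stood alone past 10% in both libraries. Rpl27a was at 13.6% and 5.23% and Rpl10a at 4.62% and 1.498%. Of the junction reads compared for the Rpl10a member, 829 of 1403 (59.1%) were its own. These 1403 reads were few for a gene at 1864 and 2301 TPM, so the percentage covers only the splice sites compared. Rpl3 was at 0.421% and 1.06% and Rps9 at 0.855% and 0.647%. Translation factors had members in 10 of 68 genes, with medians of 20.2% and 13.6%. Here 8 of the 10 passed 10% in both libraries. The 8 also included Eef1b2 (76.9% and 54.2% summed), Eif2a (53.4% and 12.3%), Eif6 (36.5% and 22.03%) and Eif4g1 (30.8% and 23.0%). The median junction share of the list was 0.0107% over 11 members.

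Respiratory chain and mitochondrial ribosome genes had members in 29 of 164 genes, with medians of 2.45% and 2.12%. Mrps14, Mrpl3 (73.5% and 69.4% over 3 members) and Atp5f1 were high, and Cox4i1 was near 0. Mrpl32 was at 100% because its member was the only transcript listed, and the model of that member changed in M21. In the proteasome and ubiquitin list 36 of 129 genes had a member, with medians of 4.17% and 3.90%. Psmc3ip (5.65% and 10.2%) was among the 36 through its symbol only. The deubiquitinase genes Usp7 (48.0% and 43.0%) and Usp40 (40.3% and 42.2%) led, and were close between libraries. The Usp7 member held 22 of 574 junction reads (3.83%).

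Of the polyamine genes, 4 of 10 had a member. The spermine synthase gene Sms was at 47.6% and 44.0%, and Azin1, an antizyme inhibitor, at 2.12% and 4.61%. In the list of replication, cell cycle and chromosome genes, 15 of 74 had a member and the medians were 0.928% and 1.82%. Cenpa, the centromeric histone, was at 57.6% and 46.3%, mostly from a member whose model changed. Smc1a, a cohesin subunit, was at 26.7% and 2.23% and Stag1, another, at 26.5% and 1.82%.

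Chromatin regulators had members in 17 of 58 genes, with medians of 2.51% and 3.36%, and Cbx1, Smarca2, Kmt2e (47.6% and 15.7%) and Ehmt1 (23.4% and 36.1%) were highest. The models of the main Smarca2 and Ehmt1 members changed in M21. In the list of neuronal and neural development genes, 15 of 74 had a member. Their medians were 13.3% and 16.1%, and 9 passed 10% in both libraries. Qk led, followed by the glutamate receptor gene Gria2 (40.9% and 19.3%), the synaptic scaffold gene Dlg4 (27.9% and 16.1%) and Numb, a regulator of asymmetric division (13.3% and 28.2%). The models of the Qk and Dlg4 members changed in M21, so the type may not describe what was counted. The Ank2 member was at 0. The larger Numb member had 0 of 1058 junction reads, and over 9 measured members the median junction share was 0.568%.

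The remaining genes that head or close a list were as follows. Cul7, a scaffold of ubiquitin ligases, was at 31.6% and 25.9%, the ribosomal protein gene Rpl22l1 at 2.35% and 2.11% and the spermine oxidase gene Smox at 2.23% and 5.33%. The lowest genes of their lists were Snrpa (0.0489% and 0.147%), Eif2b1 (0.205% and 1.74%), Sat1 (0.931% and 2.16%) and Kdm2b (0.0159% and 0%), while the members of Rpl9, Psma5 and Rfc4 were listed at 0 in both libraries.

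At the edge of the selection, the genes just inside were Rsbn1 (10 TPM in its lower library), Tsga10 (10) and Cacna1b (10.08). The members had shares of 3.60% and 0.653% in Rsbn1, 15.6% and 7.19% in Tsga10 and 25.3% and 20.9% in Cacna1b. Just outside were Lrrc28 (9.98), Gpatch1 (9.97) and Acot9 (9.96), with NMD transcripts at shares of 0% to 23.5% in replicate 1 and 0% to 17.2% in replicate 2. Of these genes, Lrrc28 held the highest shares outside the minimum and Cacna1b the highest inside it. The Lrrc28 models changed in M21.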

How the data were processed

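Gene and transcript tables on mm10 were deposited for each library. They used GENCODE M4 models, per the deposited notes, and which aligner and quantifier produced them was not given in the sources used here. Per the file headers, the authors gave expected counts, TPM and, for TPM, an interval as other values with no stated level. Shares were computed from the deposited TPM without a test. Transcript types, stops and sequences came from GENCODE M21, in which 101510 of the 103639 Ensembl identifiers were found.

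The mm9 files deposited for the series hold read counts per splice junction, and RPKM per transcript of Ensembl 65 models, as attribute text (other). Their 2 columns are not tied to a replicate. Junction shares used members whose mm9 exon lengths match M21, and at least 20 reads. Members with an intron after the normal stop or no protein-coding partner were left out of them. Exon inclusion is the reads of the less used flanking junction over these and the skipping reads. Wilson intervals at 95% cover counting error only.

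Named were the 10 members with the highest share (mean TPM of at least 1, gene with a protein-coding transcript), the 10 with the highest TPM, the 5 with the largest difference each way, the 4 highest genes and the lowest one of each of 12 lists, a fixed set of known NMD targets, and genes next to the minimum. The members and lists were chosen with earlier results of these data known. Other genes named were chosen after their values were seen. Scripts (Python 3.11.15, pandas 2.3.3, numpy 2.4.6, scipy 1.17.1, matplotlib 3.10.9) were tested on simulated data. Alternatives were the TPM minimum, expected counts, another denominator, complete coding sequences, single libraries and the mm9 table.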

Additional observations from a re-analysis of the deposited data

How the results depend on the processing

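The median member share, 1.70%, was 1.82% with a gene TPM minimum of 5 and 1.60% with 20. It was 0.825% from expected counts, 2.32% over protein-coding and NMD transcripts only, and 1.98% for complete coding sequences. With alternatives chosen after seeing the data it was 1.77% by M21 gene, 1.86% from posterior mean TPM and 1.64% for unchanged models. With 1 library left out it ranged from 1.65% to 1.82%. The pooled share, 12.4%, was 9.57% from expected counts, 15.5% over protein-coding and NMD transcripts, and 8.88% without the 10 highest members, also chosen after seeing the data. Members that lead their gene numbered 80 in both libraries, and 146 to 190 in a single library, where only 1 library has to pass. The other counts over members stayed within 1.5 times under the alternatives run. Of 138 named shares, 51 moved by more than the SD between libraries from expected counts and 30 with the other denominator. From mm9 RPKM, 68 of 118 moved. The cause was not tested. No paired analysis was possible because the study has 1 group.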
